A study of Mus musculus with 32 samples.

Results

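The splicing machinery of the mouse embryo was followed through 65 protein-coding genes, taken from the 55385 genes (21897 of them protein-coding) listed in each RNA table. They were chosen by symbol alone, as genes whose names start with Srsf, Sf3a, Sf3b or Prpf and a number, or with Hnrnp or Snrp, and no measured value is part of that rule. They comprised 12 genes of Sm and other snRNP proteins, 9 of SF3A and SF3B subunits, 13 of PRPF factors, 11 of SR proteins and 20 of hnRNP proteins. A further 5 genes with such symbols were not protein-coding and were left out, and genes named Snrnp, which the pattern does not take, were counted with the other spliceosome proteins.

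The spliceosome removes introns from pre-mRNA. Small nuclear ribonucleoprotein particles (snRNPs), each a small nuclear RNA in a ring of Sm proteins with proteins of its own, recognise the splice sites: the U1 particle binds the start of the intron and the U2 particle the branch point, which SF3A and SF3B help to hold. PRPF factors belong mainly to the tri-snRNP of U4, U5 and U6 and to the complexes that activate it. SR proteins and hnRNP proteins bind the pre-mRNA and favour or disfavour the use of nearby splice sites. In the mouse, transcripts stored in the oocyte are cleared after fertilization while the embryo's own genome is switched on, first weakly in the zygote and early 2-cell embryo and then broadly at the late 2-cell stage (zygotic genome activation, ZGA).

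Total RNA-seq of pooled wild-type embryos was compared in 8 groups of 2 libraries. Embryos came from in vitro fertilization with B6D2F1/J mice of 6 to 8 weeks as both parents. Zygotes and embryos of the early and of the late 2-cell stage had been cultured with A-485, which blocks the acetyltransferases CBP and p300, at 10 µM from 4 to 20 h post in vitro fertilization (hpi), or with its solvent DMSO. Labels give this window at all of these stages without an hour of collection, so zygotes may have seen only part of it. The study describes the inhibition as transient, from zygote to early 2-cell. Its staining of a histone acetylation (H3K27ac) was back at the control level once A-485 was washed off. On that description, late 2-cell embryos were no longer in A-485. All embryos so treated arrested at the 2-cell stage. In another experiment, late 2-cell embryos had been cultured with 50 nM trichostatin A (TSA), an inhibitor of histone deacetylases (HDACs), from 8 to 28 hpi, or with DMSO, so there were 2 separate DMSO-treated groups of late 2-cell embryos. The study reports that TSA over this window led to developmental arrest as well. The comparisons ask what loss of CBP/p300 activity and loss of HDAC activity do to transcripts around ZGA. Peaks of ATAC-seq, which marks open chromatin, from late 1-cell and early 2-cell stages under A-485 or DMSO gave a separate readout of the same genes. The number of embryos per library is not given in the sources used here, and nothing says that the 2 libraries of a group came from separate cultures or animals, so that p-values measure only the spread between these libraries.

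Levels are given as FPKM (fragments per kilobase of transcript, relative to library size), the scale on which genes can be compared. Fold changes and adjusted p-values come from edgeR on the counts, each log2 fold change with its standard error. A gene was called up-regulated or down-regulated when its adjusted p was under 0.05, it differed by 2-fold or more and its mean reached 1 FPKM in at least 1 of the groups. The libraries held 13206163 to 32585987 expected counts, and 61 to 64 of the 65 genes reached 1 FPKM in a given library. All 10 markers of oocyte and embryo, which include zona pellucida genes, had a mean of at least 1 FPKM in every group and summed to 1174 to 3894 FPKM per library, whereas markers of cumulus cells summed to 0.90 to 6.64 FPKM, those of sperm to 1.25 to 18.9 FPKM, those of fibroblasts to 0 to 2.64 FPKM and those of erythroid cells to 0 to 9.19 FPKM. The erythroid sum was highest in the TSA-treated libraries (6.95 and 9.19 FPKM, against 0.07 and 0.21 FPKM in their DMSO libraries). TSA-treated libraries also held more of the cumulus (2.23 to 2.51 against 1.28 to 1.44 FPKM), sperm (4.15 to 6.24 against 1.99 to 3.21 FPKM) and fibroblast markers (1.88 to 2.64 against 0.08 to 1.49 FPKM) and less of the oocyte and embryo markers (1174 to 1187 against 1679 to 1712 FPKM). After A-485 at late 2-cell, cumulus (3.84 to 3.99 against 0.90 to 1.82 FPKM) and fibroblast markers (0.28 to 0.47 against 0.05 to 0.10 FPKM) were higher. Erythroid (0.33 to 0.55 against 0.71 to 0.75 FPKM) and oocyte and embryo markers (1657 to 1702 against 1802 to 1963 FPKM) were lower there in sum. Single oocyte and embryo markers did not all follow their sum at late 2-cell. *Dppa3* fell from 1205 and 986.9 FPKM to 220.4 and 265.8 FPKM after A-485. After TSA it fell from 1102 and 1090 FPKM to 408.9 and 423.7 FPKM. *Oosp1* rose from 450.5 and 464.8 FPKM to 780.2 and 794.1 FPKM after A-485. After TSA it rose from 327.8 and 306.3 FPKM to 409.8 and 388.8 FPKM. At early 2-cell, sperm (7.92 to 8.44 against 5.59 to 7.08 FPKM) and oocyte and embryo markers (3532 to 3682 against 3173 to 3320 FPKM) were higher after A-485, and erythroid (0.07 to 0.45 against 1.13 to 3.48 FPKM) and fibroblast markers (0.01 to 0.05 against 0.06 to 0.56 FPKM) lower. The part of these markers in the results was not tested. In such pooled material, fewer embryos or cells and less RNA per cell cannot be told apart.

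The 65 genes spanned a wide range of levels. The highest means over the 16 libraries belonged mostly to hnRNP genes: *Hnrnpa3* at 301.2 FPKM, *Hnrnpu* at 234 FPKM, *Hnrnpk* at 224 FPKM, *Hnrnpf* at 213 FPKM and *Hnrnpab* at 199.6 FPKM led the list. Also among the 10 highest were *Hnrnpc* (185 FPKM), *Hnrnpd* (167 FPKM), *Hnrnpa1* (147 FPKM) and *Hnrnpa2b1* (145 FPKM). The 5 lowest were *Srsf12*, an SR gene with a mean of 0.164 FPKM, *Prpf40b* (1.58 FPKM), *Sf3b5* (1.99 FPKM), *Prpf4* (3.68 FPKM) and *Hnrnpll* (7.14 FPKM).

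**Figure D1:**
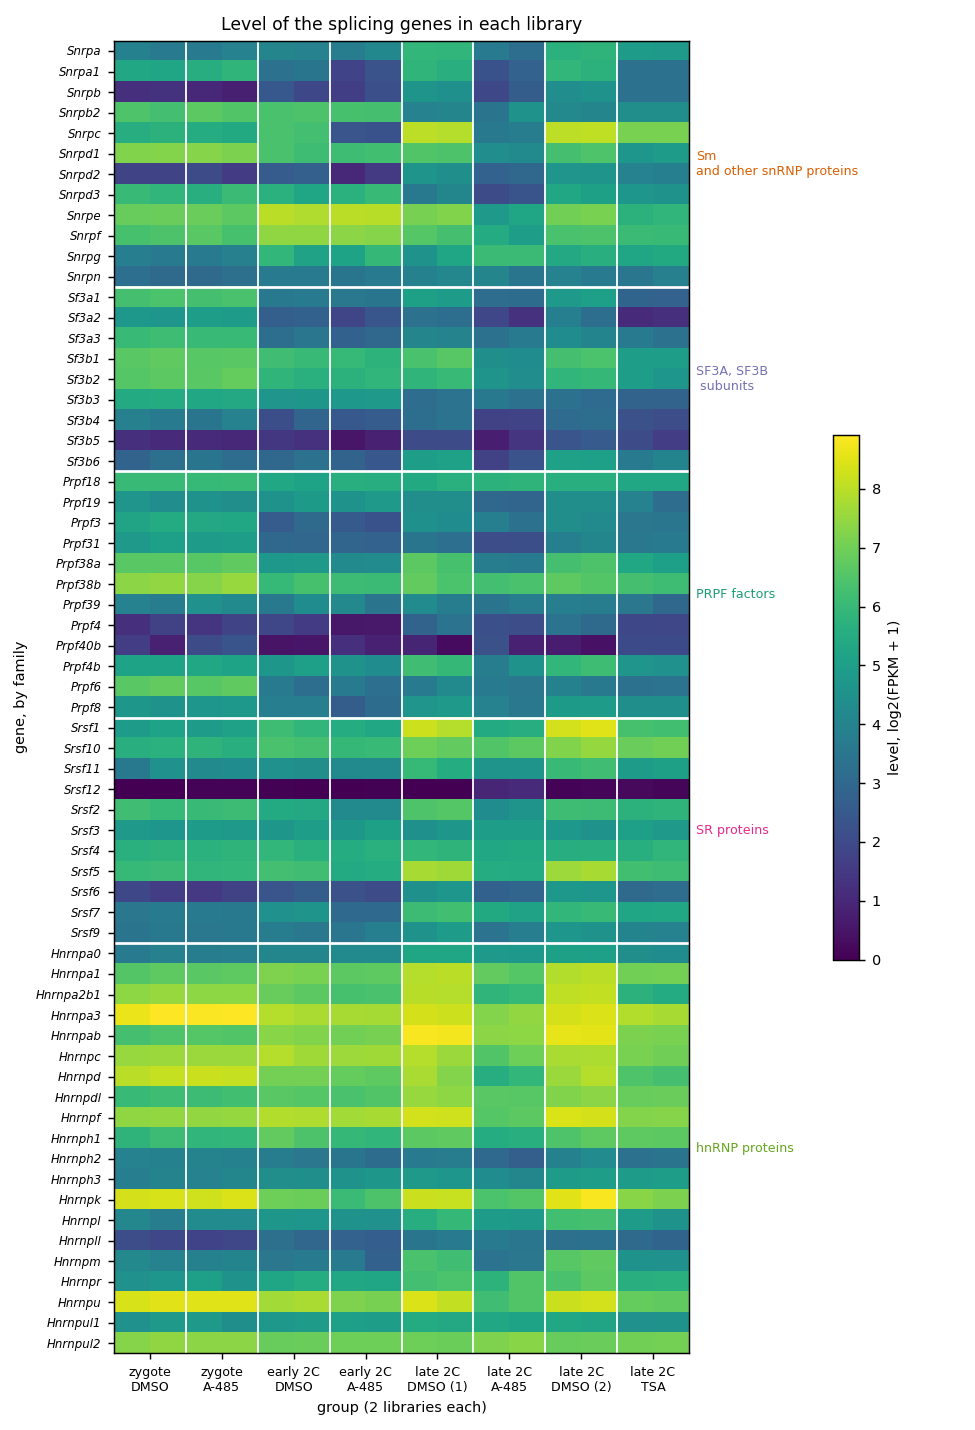
Level of 64 of the 65 splicing genes (rows, by family) in each of the 16 RNA libraries (columns, 2 per group), coloured by log2(FPKM + 1); late 2C DMSO (1) belongs to the A-485 experiment and DMSO (2) to the TSA experiment. The late 2-cell A-485 columns are darker than their DMSO columns for most rows, with *Snrpc* falling from 259 and 245 FPKM to 11.2 and 12.4 FPKM.

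Together the 65 genes made up 0.57% and 0.603% of all FPKM in the DMSO-treated zygote libraries and 0.583% and 0.614% in the A-485-treated ones. In early 2-cell embryos the share was 0.307% and 0.296% with DMSO and 0.242% and 0.253% with A-485. At late 2-cell it was 0.484% and 0.4% with DMSO against 0.113% and 0.134% with A-485, and 0.397% and 0.386% with DMSO against 0.184% and 0.159% with TSA. The share was lower in the treated libraries than in their DMSO libraries in all 3 comparisons of 2-cell embryos, and the zygote groups overlapped. As a share of the FPKM of protein-coding genes alone, which leaves out the large non-coding part of total RNA, the late 2-cell values were 1.78% and 1.64% with DMSO against 0.803% and 0.873% with A-485, and 1.77% and 1.89% with DMSO against 1.01% and 1.02% with TSA. No test was made of these sums, since 2 libraries against 2 cannot reach a p under 0.05 in an exact test.

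In DMSO-treated embryos, the families took different courses between zygote and early 2-cell. Of 64 genes tested, 13 were down-regulated (20.31%, against 22.5% of all genes) and 11 up-regulated (17.19%, against 16.9% of all genes), so the shares over the whole set were close to those of all genes. PRPF factors and SF3 subunits gave 10 of the 13 down-regulated genes (6 of 13 and 4 of 9) and none of the up-regulated ones, while Sm and other snRNP genes had 6 of 12 up-regulated and SR genes 3 of 10.

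*Prpf6*, which bridges the particles of the tri-snRNP, had 99.4 and 109 FPKM in DMSO-treated zygotes and 11.3 and 8.36 FPKM in early 2-cell embryos, and stayed at 11.5 and 18 FPKM at late 2-cell. The groups were far apart, and the log2 fold change from zygote to early 2-cell was −3.32 ± 0.14 (adjusted p = 6.69e-10). The 3 subunits of SF3A, which joins the U2 particle, moved together: *Sf3a3* fell by 2.80 on the log2 scale, *Sf3a1* fell by 2.75 and *Sf3a2* fell by 1.96. *Prpf3* (−2.76) and *Prpf31* (−2.28), both of the U4/U6 part of the tri-snRNP, *Snrpa1* (−1.79), of the U2 particle, and *Prpf38a* (−1.77), an activation factor, completed the 8 largest falls.

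The rises were smaller. *Snrpg*, an Sm ring gene, rose from 13.1 and 11.6 FPKM to 58.8 and 34.6 FPKM, by 1.73 ± 0.20 on the log2 scale (adjusted p = 8.91e-06). Some other ring genes rose with it, *Snrpb* by 1.43 (a call lost when either zygote library or early 2-cell replicate 1 was left out), *Snrpe* by 1.17 and *Snrpf* by 1.15, as did *Snrpc* of the U1 particle by 1.14, the SR genes *Srsf1* by 1.34 and *Srsf7* by 1.27, and *Hnrnpll* by 1.41. The ring gene *Snrpd1* went the other way, by −0.91 (adjusted p = 1.44e-05), under 2-fold, and *Snrpd3* changed by −0.26 (adjusted p = 0.0859). The rises depended on the scaling. Libraries were also scaled by mitochondrially encoded genes. Their share of counts rose from at most 1.06% in DMSO-treated zygotes to at least 2.24% in early 2-cell embryos. The median of all expressed genes then shifted to −1.45, and that of the 64 genes to −1.18, which is less low. Of the 64 genes, 40 were then down-regulated and none up-regulated. Shares of all genes called were not taken under this scaling. *Srsf1*, *Srsf7*, *Snrpe*, *Snrpf* and *Snrpc* changed sign.

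From early to late 2-cell, the medians of all 5 families lay above 0. In DMSO-treated embryos of the A-485 experiment, 23 of 64 genes were up-regulated (23.6% of all genes were) and 4 down-regulated (13.2% of all genes were), with a median log2 fold change of 0.67 against 0.03 over all expressed genes. *Hnrnpm*, an hnRNP gene that acts on alternative exons, rose from 10.5 and 12.0 FPKM to 81.0 and 71.1 FPKM, by 2.85 ± 0.15 (adjusted p = 7.05e-08). *Snrpa1* rose from 9.21 and 10.2 FPKM to 56.9 and 48.0 FPKM, by 2.52 ± 0.19 (adjusted p = 8.41e-07). In both cases each late 2-cell library lay far above each early one.

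*Snrpb* (2.55), *Snrpd2* (2.06) and *Snrpa* (1.98), 2 ring genes and a gene of the U1 particle, rose as well, with *Srsf6* (2.04), *Prpf4* (1.93) and *Sf3b6* (1.91), whose product lies at the branch point. The 4 genes that fell were *Snrpb2*, a U2 particle gene, from 80.6 and 84.7 FPKM to 14.6 and 15.7 FPKM (−2.32 ± 0.14, adjusted p = 1.84e-07), *Snrpd3* (−1.64), *Sf3b3* (−1.59) and *Snrpf* (−1.02). With the DMSO-treated late 2-cell embryos of the TSA experiment in their place, 2 genes were called down and 26 up. The shares of all genes were not counted for that comparison. The groups of DMSO-treated late 2-cell embryos of the 2 experiments differed little between themselves: none of 64 genes was called in either direction by edgeR or by DESeq2 (1.82% of all genes were called lower and 0.208% higher in the A-485 experiment), although 10 had an unadjusted p under 0.05 in edgeR. *Snrpd3*, of the Sm ring, was the 1 gene with an adjusted p under 0.05 in edgeR (0.0207), with 11.1 and 16.2 FPKM in the A-485 experiment and 39.8 and 32.4 FPKM in the TSA experiment, a log2 difference of −0.88 in counts that is under 2-fold.

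**Figure D2:**
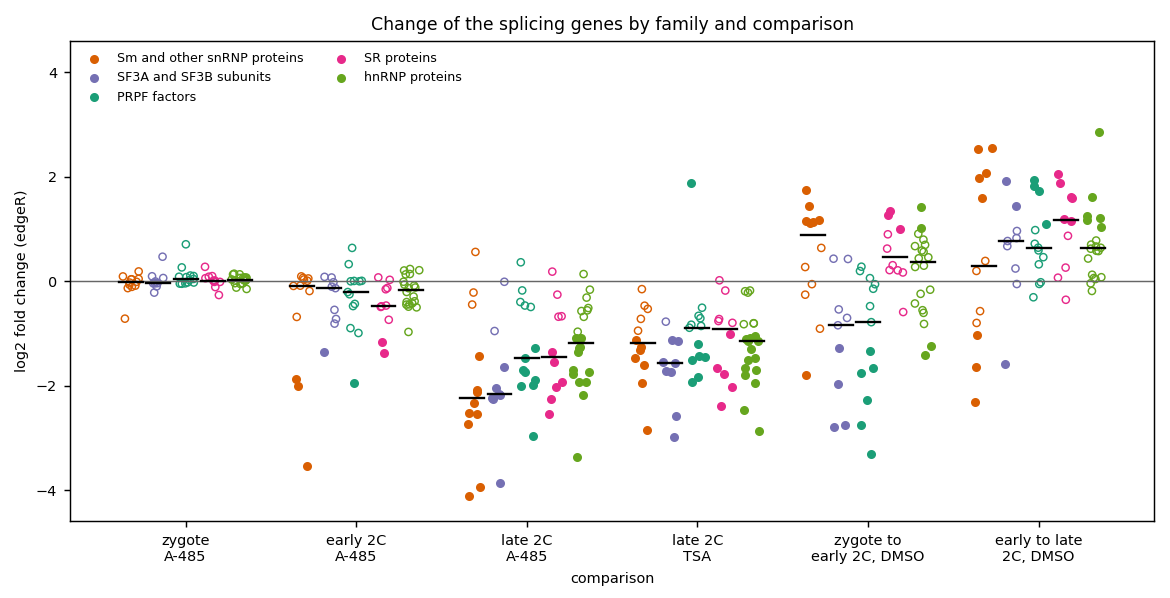
Log2 fold change (edgeR) of each splicing gene in 6 comparisons, coloured by family; filled points are called genes, open points are not, and bars are medians of the genes drawn (*Srsf12*, at 4 counts or fewer in most libraries, is not drawn). The points lie around 0 in A-485-treated zygotes, spread to −3.54 (*Snrpc*) in early 2-cell embryos, and shift as a body below 0 at late 2-cell after either inhibitor.

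In A-485-treated zygotes, none of the 65 genes tested was called down or up by edgeR or by DESeq2 (0.101% of all genes were called down and 0.00839% up), and 3 had an unadjusted p under 0.05 in edgeR. The log2 fold changes of the 64 expressed genes ran from −0.72 (*Snrpb*) to 0.70 (*Prpf40b*), with a median of 0.02. In FPKM the treated libraries lay below both controls for 7 of the 64 and above both for 9. Of all 11922 expressed genes, 1834 lay below both controls and 2091 above both. *Snrpc* had 46.5 and 51.8 FPKM with DMSO and 45.2 and 42.1 FPKM with A-485, and *Srsf2*, an SR gene, had 71.6 and 62.1 FPKM with DMSO and 64.6 and 68.8 FPKM with A-485. Both genes fell in A-485-treated embryos of the next stage.

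In early 2-cell embryos, A-485 lowered a small number of splicing genes, a share close to that of all genes. Of 64 genes tested, 7 were down-regulated (10.94%, against 12.7% of all genes), 3 of 12 among Sm and other snRNP genes, 2 of 10 among SR genes and 1 each among PRPF factors and SF3 subunits. None of the 20 hnRNP genes was called, although 7 of them fell at an adjusted p under 0.05 by less than 2-fold. On that criterion alone 20 of the 64 genes were lower and 1 higher (15.6% and 2.26% of all genes were). No gene was called up by edgeR or by DESeq2 (0.647% of all genes were), where 28 genes had an unadjusted p under 0.05 in either direction in edgeR. The 1 higher gene was *Prpf18*, which acts in the last step of splicing, by 0.32 (adjusted p = 0.0381). The median over the 64 genes was −0.17 (−0.28 to −0.15 over single pairs of libraries) against −0.01 over all expressed genes.

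*Snrpc* encodes U1-C, which steadies the pairing of the U1 particle with the start of the intron. It lies on chr17:27838150-27851968 (GRCm38, plus strand). Its level was 82.2 and 74.8 FPKM with DMSO and 4.09 and 3.76 FPKM with A-485, so that the treated libraries lay far below both controls and also below every zygote library. The log2 fold change was −3.54 ± 0.16 (adjusted p = 1.73e-08), which is 11.6-fold lower. *Snrpa1*, the gene of a core protein of the U2 particle (chr7:66059003-66074587, plus strand), went from 9.21 and 10.2 FPKM to 2.44 and 3.88 FPKM, by −2.01 ± 0.30 (adjusted p = 0.000636).

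Both *Snrpc* and *Snrpa1* thus differed between the groups without overlap. *Srsf2*, which binds exonic enhancers (chr11:116849901-116853094, minus strand), had 42.6 and 40.6 FPKM with DMSO and 18.2 and 18.1 FPKM with A-485 (−1.18 ± 0.12, adjusted p = 1.95e-05). *Srsf7*, an SR gene also known for its part in mRNA export (chr17:80200080-80207307, minus strand), had 21.6 and 23.4 FPKM with DMSO and 7.22 and 7.23 FPKM with A-485 (−1.38 ± 0.17, adjusted p = 0.00012). In control embryos *Srsf7* had risen between zygote and early 2-cell, by 1.27 on the log2 scale of counts, close to the size of its fall. In FPKM the treated early 2-cell libraries lay below those of zygotes. The estimated transcript length, by which FPKM divides, was 1780 bases in treated early 2-cell embryos and 1393 bases in DMSO-treated zygotes.

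The other 3 were expressed at low levels. *Prpf4*, a tri-snRNP gene (chr4:62408797-62426990, plus strand), had 2.76 and 2.00 FPKM with DMSO and 0.49 and 0.54 FPKM with A-485 (−1.95 ± 0.35, adjusted p = 0.00238). *Snrpd2*, of the Sm ring (chr7:19149722-19153542, plus strand), had 5.01 and 5.68 FPKM against 1.06 and 1.86 FPKM (−1.87 ± 0.38, adjusted p = 0.00549). *Sf3b5*, a small SF3B subunit (chr10:13005343-13009183, plus strand), had 1.75 and 1.41 FPKM against 0.47 and 0.76 FPKM (−1.35 ± 0.37, adjusted p = 0.0341). The groups did not overlap for any of the 3, but the call of *Sf3b5* was lost with DESeq2 (adjusted p = 0.0558) and without DMSO replicate 1 or A-485 replicate 1 (adjusted p = 0.166 and 0.155).

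**Figure D3:**
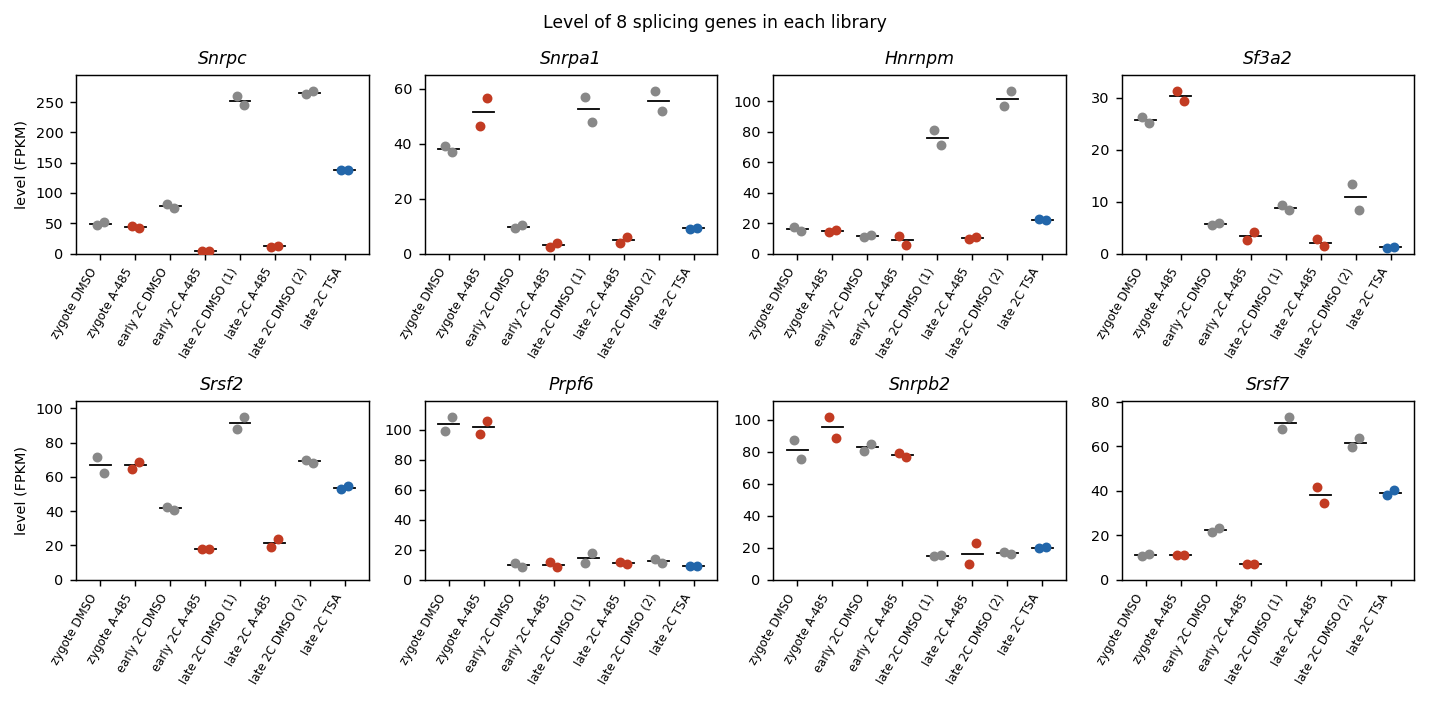
Level in FPKM of 8 splicing genes in each library (points, 2 per group; bars are group means; grey DMSO, red A-485, blue TSA; DMSO (1) belongs to the A-485 experiment and DMSO (2) to the TSA experiment). *Snrpc* drops to 4.09 and 3.76 FPKM with A-485 at early 2-cell, *Hnrnpm* is highest in late 2-cell controls, and *Prpf6* and *Snrpb2* are called after neither inhibitor.

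At late 2-cell, most splicing genes were lower in A-485-treated embryos. Of 65 genes tested, 42 were down-regulated (64.62%, against 23.8% of all genes) and 1, *Srsf12*, up-regulated (15% of all genes were). The median log2 fold change was −1.55 (−1.67 to −1.44 over single pairs of libraries) against 0.02 over all expressed genes. Down-regulated genes were 9 of 12 among Sm and other snRNP genes (median −2.23), 7 of 9 SF3 subunits (−2.16), 8 of 13 PRPF factors (−1.47), 6 of 11 SR genes (−1.36) and 12 of 20 hnRNP genes (−1.18). In FPKM, the treated libraries lay below both controls for 53 genes (34% of all genes did) and above both for 5 (41.5% of all genes did).

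The 3 largest falls were those of *Snrpa1*, *Snrpc* and *Sf3b6*. *Snrpa1* had 56.9 and 48.0 FPKM with DMSO and 3.76 and 6.03 FPKM with A-485 (−4.11 ± 0.28, adjusted p = 2.46e-07), a 17.3-fold lower level, and it shares 148 exon bases with *Gm45213* on the same strand. *Snrpc* had 259 and 245 FPKM with DMSO and 11.2 and 12.4 FPKM with A-485 (−3.94 ± 0.17, adjusted p = 1.08e-08), 15.3-fold lower. *Sf3b6* had 30.5 and 33.8 FPKM with DMSO and 2.36 and 3.83 FPKM with A-485 (−3.86 ± 0.44, adjusted p = 2.13e-05), 14.5-fold lower by counts. For each of the 3 genes the treated late 2-cell libraries were also below those of DMSO-treated early 2-cell embryos.

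*Hnrnpm* had 81.0 and 71.1 FPKM with DMSO and 9.63 and 10.7 FPKM with A-485 (−3.37 ± 0.16, adjusted p = 2.04e-08), so that the treated libraries held about the level of control early 2-cell embryos (10.5 and 12.0 FPKM). *Hnrnpm* shares 1169 exon bases with *March2* on the same strand, and reads of the overlap could count for either gene. *Prpf38a* had 100.5 and 80.2 FPKM with DMSO and 12.7 and 11.9 FPKM with A-485 (−2.96 ± 0.19, adjusted p = 1.78e-07). *Snrpa*, of the U1 particle (−2.73), *Snrpd1*, of the Sm ring (−2.54), and *Srsf5*, an SR gene (−2.54), completed the 8 largest falls, each without overlap between the groups.

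The rise of *Srsf12*, a poorly known SR-type gene, rested on few counts. Its libraries held 0 and 0 counts with DMSO and 34 and 18 counts with A-485, 0.95 and 1.09 FPKM. With a floor of 3 counts per DMSO library, the level was at least 13.2-fold higher, and the call was lost without A-485 replicate 1 (adjusted p = 0.0582). Among genes that were not called, *Sf3b3* (−0.01), *Hnrnpul2* (0.13), *Srsf3* (0.18), *Prpf18* (0.36) and *Snrpg* (0.56) lay nearest to or above 0.

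An interaction term, fitted over 8 libraries, tested whether A-485 had the same effect at both 2-cell stages. The effect was more negative at late 2-cell, by at least 2-fold at an adjusted p under 0.05, for 29 of 65 genes (44.62%, against 7.46% of the 25141 genes tested, which here include genes of low level). It was more positive for none in edgeR or DESeq2 (8.39% of all genes), where 45 genes had an unadjusted p under 0.05 in either direction in edgeR. *Sf3b6* differed by −2.96 ± 0.52 (adjusted p = 0.000141), *Snrpa* by −2.66 ± 0.32 (adjusted p = 6.59e-07) and *Prpf38a* by −2.40 ± 0.23 (adjusted p = 2.71e-08). *Hnrnpm* (−2.31), *Snrpe* (−2.31), *Snrpd1* (−2.27), *Sf3b2* (−2.16) and *Snrpd3* (−2.12) followed.

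The genes that were already lower at early 2-cell did not all follow that pattern. *Snrpc*, with −3.54 at early and −3.94 at late 2-cell, differed by −0.32 ± 0.22 (adjusted p = 0.356). *Prpf4* (0.02 ± 0.37), *Snrpd2* (−0.13 ± 0.46) and *Sf3b5* (−0.20 ± 0.61) gave no call either, with standard errors too wide to show that the effects were alike. *Snrpa1* fell further at late 2-cell (−2.02 ± 0.39, adjusted p = 0.000387). *Srsf7* was the reverse: its fall of −1.38 at early 2-cell was −0.68 at late 2-cell, a difference of 0.78 ± 0.22 (adjusted p = 0.0112) that is under 2-fold. Of the 7 genes down-regulated at early 2-cell, 6 were down-regulated at late 2-cell (85.71%, against 74.6% of all genes down-regulated early), all but *Srsf7*.

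TSA, which acts on the opposing enzymes, was followed by a fall of most splicing genes as well. At late 2-cell, 40 of 65 genes were down-regulated against the DMSO-treated embryos of that experiment (20.2% of all genes were), and 1, *Prpf40b*, was up-regulated (20.2% of all genes were). The median was −1.15 (−1.25 to −1.12 over single pairs of libraries) against −0.03 over all expressed genes. Down-regulated genes were 8 of 9 SF3 subunits (median −1.58), 14 of 20 hnRNP genes (−1.15), 7 of 12 Sm and other snRNP genes (−1.19), 6 of 13 PRPF factors (−0.89) and 5 of 11 SR genes (−0.80). In FPKM, the treated libraries lay below both controls for 55 genes (28.6% of all genes did).

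The genes that moved most were in part other ones than after A-485. *Sf3a2*, an SF3A subunit, had 13.4 and 8.31 FPKM with DMSO and 1.12 and 1.33 FPKM with TSA (−2.99 ± 0.29, adjusted p = 9.89e-06), 7.96-fold lower, and it shares 429 exon bases with *Plekhj1* on the other strand. *Hnrnpa2b1*, an hnRNP gene of high level, had 270.5 and 278 FPKM with DMSO and 52.8 and 43.5 FPKM with TSA (−2.86 ± 0.09, adjusted p = 4.64e-09), 7.27-fold lower by counts. *Snrpa1* had 59.2 and 52.0 FPKM with DMSO and 9.04 and 9.18 FPKM with TSA (−2.85 ± 0.15, adjusted p = 8.65e-08). In these 3 genes all TSA-treated libraries lay well below the controls.

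*Sf3a1* (−2.58), *Hnrnpm* (−2.47), *Srsf1*, the founding SR gene (−2.40), *Srsf6* (−2.03) and *Snrpd1* (−1.95) completed the 8 largest falls. *Snrpc* fell less, from 263 and 269 FPKM to 138 and 139 FPKM (−1.26 ± 0.08, adjusted p = 3.23e-07). *Prpf40b* had 0.59 and 0.34 FPKM with DMSO and 3.00 and 3.05 FPKM with TSA (1.87 ± 0.41, adjusted p = 0.00394), and in no other treatment comparison was it called.

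The down-regulated genes of the 2 inhibitors overlapped widely, in comparisons that share no library. Of 42 genes down-regulated after A-485 and 40 after TSA, 36 were common to both, 85.71% of the first and 90.0% of the second, where 62.8% of all genes down-regulated after A-485 were also down-regulated after TSA. *Hnrnph1*, *Prpf31*, *Prpf8*, *Snrpd3*, *Snrpf* and *Srsf2* were called only after A-485, and *Hnrnpa0*, *Hnrnpr*, *Hnrnpul1* and *Sf3a3* only after TSA. Across 64 genes (without *Srsf12*) the log2 fold changes of the 2 comparisons had a Pearson r of 0.686, and across 13916 expressed genes of 0.62, given as a description since genes are not independent. In 16 of the 65 genes no treatment comparison gave a call, among them *Hnrnpa3*, the gene with the highest mean, *Prpf6*, *Snrpb2*, *Sf3b3*, *Srsf3* and *Srsf4*. None of the 65 was called in opposite directions. These counts were not made over all genes, so they cannot be set beside a share.

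The genes that rose at late 2-cell in controls were largely those that were lower in treated embryos. To keep the libraries separate, the rise was taken against the controls of the other experiment. Of 26 genes up-regulated from early to late 2-cell in controls of the TSA experiment, 23 were down-regulated after A-485 (88.46%, against 70.05% of all genes that rose so), the exceptions being *Hnrnpa0*, *Sf3a3* and *Srsf7*. Of 23 up-regulated in controls of the A-485 experiment, 22 were down-regulated after TSA (95.65%, against 67.55% of all genes that rose so), all but *Srsf7*. Yet 19 of the 42 genes down-regulated after A-485 had not been called up, such as *Sf3b1*, which binds the branch point region, with 71.1 and 64.2 FPKM in early and 81.0 and 95.9 FPKM in late 2-cell controls and 20.9 and 19.4 FPKM after A-485 at late 2-cell.

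**Figure D4:**
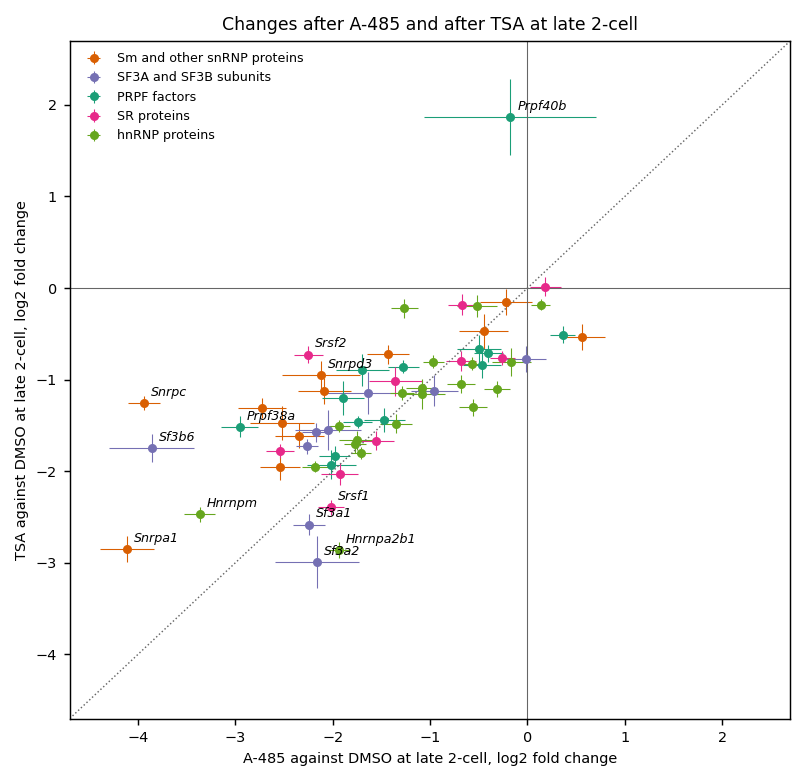
Log2 fold change of each splicing gene at late 2-cell after A-485 (x axis) and after TSA (y axis), each against the DMSO libraries of its own experiment, with standard errors and coloured by family; the dotted line marks equal changes and *Srsf12* is not drawn. Most points lie in the lower left, with *Snrpc* (−3.94 and −1.26) and *Sf3b6* well above the line and *Hnrnpa2b1* (−1.94 and −2.86) below it.

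A test of the difference between the 2 inhibitors, each against its own DMSO, gave 11 genes that were less reduced after TSA (16.92%, against 11% of all genes tested) and 1, *Srsf12*, whose change was lower after TSA (2.98% of all genes). The 11 became 7 to 13 when 1 library was left out and 28 with mitochondrial scaling, where shares of all genes were not taken. Doses and windows of the 2 inhibitors differ, so the test compares these treatments as given. *Snrpc* differed most, by 2.79 ± 0.17 (adjusted p = 3.31e-09), followed by *Sf3b6* (2.22 ± 0.44, adjusted p = 0.00146) and *Srsf2* (1.64 ± 0.17, adjusted p = 1.61e-06). *Prpf38a* (1.55), *Snrpa* (1.53), *Snrpa1* (1.37), *Snrpd3* (1.28) and *Snrpb* (1.15) came next, so that 6 of the 12 Sm and other snRNP genes were in the set, and *Hnrnph1* (1.15), *Snrpd2* (1.07) and *Hnrnpm* (1.00) closed it. The calls of *Snrpd3*, *Snrpb* and *Srsf12* were lost whenever 1 library other than A-485 replicate 2 was left out (adjusted p of 0.0546 to 0.121, 0.0573 to 0.182 and 0.0512 to 0.112 in turn). That of *Snrpb* was also lost with DESeq2 (adjusted p = 0.0696) and in a fit of all 16 libraries (adjusted p = 0.0824), and that of *Srsf12* in the latter (adjusted p = 0.055). *Hnrnpa2b1* went the other way, by −0.81 ± 0.15 (adjusted p = 0.000569), under 2-fold.

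The direction at late 2-cell did not rest on 1 way of scaling. The share of counts from mitochondrially encoded genes was 2.35% to 2.45% with DMSO and 5.35% to 5.43% with A-485, and 2.39% to 2.71% with DMSO and 3.66% to 3.72% with TSA. Scaled to those genes, the median of the splicing genes was −2.525 after A-485, where that of all expressed genes moved to −0.96, and −1.34 after TSA, where that of all expressed genes moved to −0.21. Scaled to total counts, it was −1.36 after A-485 with all expressed genes at 0.21, and −0.79 after TSA with all expressed genes at 0.32. In each case the splicing genes lay below all expressed genes.

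The falls at late 2-cell were smaller in FPKM than in the fitted counts. The median of the log2 ratio of FPKM less the log2 fold change of counts was 0.19 after A-485 and 0.35 after TSA at late 2-cell and −0.02 after A-485 at early 2-cell. Scaling the counts to their totals in place of TMM moved the median of the splicing genes by a like amount, from −1.55 to −1.36 after A-485 and from −1.15 to −0.79 after TSA. FPKM also divides by the estimated mean transcript length, which differed between treatments for some genes. *Snrpc* had an estimated length of 1061 bases with DMSO and 1673 bases with A-485 at early 2-cell, of 1014 and 1524 bases at late 2-cell, and of 968 and 990 bases in the TSA experiment. *Srsf1* went from 1729 to 2839 bases after A-485 and from 1586 to 1692 bases after TSA at late 2-cell. *Srsf7* went from 1539 to 1780 bases at early and from 1506 to 1937 bases at late 2-cell after A-485. Lengths were compared for genes at 1 FPKM or more in every library of a comparison whose estimate varied between libraries. After A-485 at late 2-cell, 6 of 60 were at least 1.2-fold longer without overlap of the libraries (10.8% of all such genes were). A further 5 were shorter (11.1% of all such genes were), and both shares were close to those of all such genes. After TSA 2 of 60 were longer (4.2% of all genes were) and none shorter (7.18% of all genes were). These genes were chosen after their values were seen, and which transcripts changed was not analysed here.

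Genes of the same pathway outside the 65 were counted in 4 lists. The counts are to be read beside the shares of all genes, which for down-regulation were 12.7% after A-485 at early 2-cell, 23.8% after A-485 and 20.2% after TSA at late 2-cell, 22.5% from zygote to early 2-cell and 13.2% from early to late 2-cell. For up-regulation they were 0.647%, 15%, 20.2%, 16.9% and 23.6% in the same order. Of the other spliceosome proteins (62 genes, such as U2 auxiliary factors, LSm proteins and helicases), 12 of 61 tested were down-regulated after A-485 at early 2-cell and none up-regulated, 44 of 62 were down-regulated and 2 up-regulated after A-485 at late 2-cell (median −1.56), and 34 down-regulated and none up-regulated after TSA (median −1.09). *Snrnp35*, of the U11/U12 particle of the minor spliceosome, went from a mean of 4.61 to 0.41 FPKM after A-485 at early 2-cell (−3.37) and from 49.1 to 1.43 FPKM at late 2-cell (−5.27, adjusted p = 6.37e-08), and fell by 4.05 after TSA (adjusted p = 1.67e-08). In control embryos 30 of the 62 fell and 4 rose from zygote to early 2-cell, and 2 fell and 29 rose from early to late 2-cell.

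Of the genes that build the Sm ring (15 genes of the SMN and PRMT5 complexes and of snRNA import), 4 of 13 were down-regulated after A-485 at early 2-cell, 9 of 15 at late 2-cell (median −2.58) and 10 of 15 after TSA (median −2.17), with none up-regulated. In controls 2 of them fell and 2 rose from zygote to early 2-cell, and 1 fell and 9 rose from early to late 2-cell. After A-485 at late 2-cell, *Snupn*, the import adaptor of the ring, fell by 4.86 and *Prmt5*, which methylates Sm proteins, fell by 4.13. After TSA, *Clns1a*, which delivers Sm proteins to *Prmt5*, fell by 3.67. Of SR protein kinases and SR-related proteins (19 genes, 18 tested), 2, 11 and 10 were down-regulated in the same 3 comparisons and none up-regulated, while 2 fell and 2 rose from zygote to early 2-cell and 1 fell and 6 rose from early to late 2-cell in controls. *Tnpo3*, the import receptor of SR proteins, changed by −2.28, −4.27 and −3.40 in turn. Other splicing regulators (38 genes, many of them tissue-specific) were more mixed, with 4 down and 1 up of 32, 11 down and 3 up of 36, and 14 down and 7 up of 35, while 6 fell and 5 rose, and then 2 fell and 6 rose, between the control stages. Of these, *Mbnl2* rose by 2.60 after A-485 and by 4.78 after TSA at late 2-cell. After A-485 in zygotes none of these 4 lists had a called gene in edgeR, where 2, 0, 0 and 2 genes, in the order given, had an unadjusted p under 0.05. DESeq2 calls were not counted for the lists.

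ATAC-seq peaks near the start sites of these genes were a readout independent of the RNA. The authors called peaks over both replicates, so there is 1 list per stage and treatment, with 10214 peaks in late 1-cell DMSO, 7094 in late 1-cell A-485, 27693 in early 2-cell DMSO and 13712 in early 2-cell A-485 embryos. The study's methods name peaks that passed a test of reproducibility between replicates (IDR), but with 1 list each the difference between treatments could not be set against the spread between replicates. A peak lay within 1.0 kb of a start site for 36 of the 65 genes (55.4%, 95% Wilson interval 43.3% to 66.8%) in late 1-cell DMSO embryos, where 26.2% of protein-coding genes had one. It did for 43 genes (66.2%, 54.0% to 76.5%) in late 1-cell A-485 embryos, where 24.7% of protein-coding genes had one. In early 2-cell embryos the numbers were 55 genes (84.6%, 73.9% to 91.4%) with DMSO and 51 (78.5%, 67.0% to 86.7%) with A-485, beside 31.8% and 41.0% of protein-coding genes. Intervals cover counting error only. Protein-coding genes were counted here whatever their RNA level, unlike the shares of all genes given for RNA, and expressed genes were not compared separately.

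**Figure D5:**
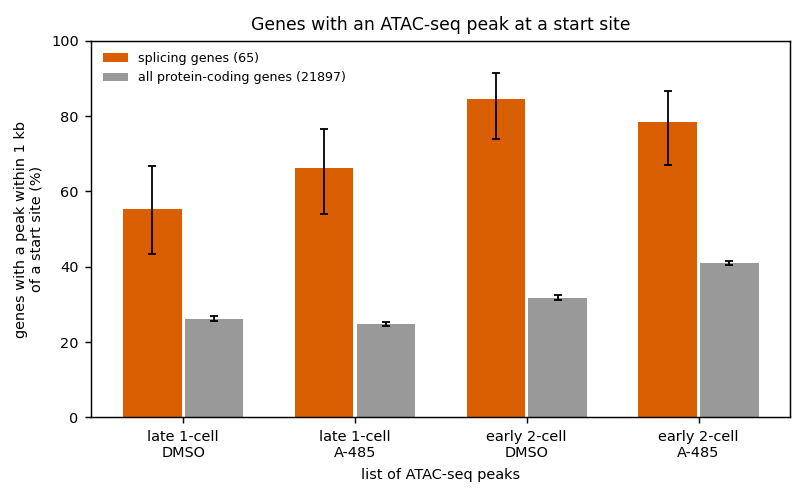
Percent of genes with an ATAC-seq peak within 1 kb of an annotated start site in the 4 peak lists, for the 65 splicing genes and for all 21897 protein-coding genes, with 95% Wilson intervals. The splicing genes stand at 55.4% to 84.6% and all protein-coding genes, expressed or not, at 24.7% to 41.0%.

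All 20 hnRNP genes had such a peak in both early 2-cell lists, against 7 and 5 of 9 SF3 subunits. Of the 55 genes with a peak in DMSO-treated early 2-cell embryos, 47 had one in A-485-treated embryos (85.5%, against 81.8% of all such protein-coding genes), 8 did not, and 4 had one only with A-485. With both lists cut to an equal number of their strongest peaks, the share with DMSO was 61.5% and that with A-485 78.5%, so the direction between the treatments turned with the length of the lists. The median fold enrichment of the peaks at these genes was 8.13 with DMSO and 8.40 with A-485, beside 8.21 and 8.15 for all genes with a peak.

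For *Snrpc* a peak with a fold enrichment of 10.8 was listed in DMSO-treated early 2-cell embryos. It did not cover a start site but lay 433 bases from the nearest one. The other 3 lists had none within 1 kb. *Snrpa1* had a peak in late 1-cell DMSO (6.72) and early 2-cell A-485 embryos (7.45) but not in early 2-cell DMSO embryos. The start of *Prpf4* was listed in all 4 lists, with fold enrichments of 9.64 and 9.33 at late 1-cell and 10.9 and 8.40 at early 2-cell for DMSO and A-485 in turn. *Srsf2* (7.06 and 6.13) and *Srsf7* (8.38 and 10.5) kept their peaks at early 2-cell although their RNA was lower, and *Sf3b5* had none in any list. *Snrpd2* was listed in all 4 (8.53 and 8.73 at late 1-cell, 10.7 and 9.24 at early 2-cell). Of the 7 genes that were lower after A-485 at early 2-cell, *Prpf4*, *Snrpd2*, *Srsf2* and *Srsf7* thus had a peak in all 4 lists, and the other 3 did not.

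The DNA before the start is shown for 4 of the genes that were down-regulated at early 2-cell. They were taken by that call and by having at least 60 bases outside annotated exons before a RefSeq start, not by their peaks. Sequences are RefSeq's, of build GRCm38.p6, 5′ to 3′ along the gene, and end at or before the base ahead of the RefSeq start, with bases of annotated exons left out; the RefSeq start of *Snrpa1* lies inside the span given above for the gene. Capitals mark motifs read on either strand. The first is GGGCGG, the GC box that is bound by Sp factors, which reads CCGCCC when it lies on the opposite strand. NF-Y is known to bind CCAAT boxes, and the TBP subunit of TFIID is known to bind TATAAA near the start. The last one, GCATGCGC, is a core of the sites of NRF1. The stretches are *Prpf4* chr4:62408663-62408782 on the plus strand, *Srsf2* chr11:116853095-116853214 on the minus strand, *Srsf7* chr17:80207308-80207425 on the minus strand and *Snrpa1* chr7:66060216-66060298 on the plus strand.
Prpf4: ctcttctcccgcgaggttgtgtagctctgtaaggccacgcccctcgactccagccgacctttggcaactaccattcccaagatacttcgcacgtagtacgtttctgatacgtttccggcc
Srsf2: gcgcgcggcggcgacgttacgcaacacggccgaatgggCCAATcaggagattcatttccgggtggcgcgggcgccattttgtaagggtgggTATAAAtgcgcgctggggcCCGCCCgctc
Srsf7: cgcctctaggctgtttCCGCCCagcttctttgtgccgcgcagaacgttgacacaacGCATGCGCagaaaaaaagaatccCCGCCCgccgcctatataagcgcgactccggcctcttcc
Snrpa1: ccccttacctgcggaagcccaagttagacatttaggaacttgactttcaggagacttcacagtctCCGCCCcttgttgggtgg

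*Srsf2* held a GC box, the NF-Y motif and the TBP motif, *Srsf7* 2 GC boxes and the NRF1 motif, *Snrpa1* 1 GC box, and *Prpf4* none of them in the stretch shown. Over the 300 bases from 250 before to 50 after the RefSeq start, 57 of the 65 genes were found in a table of 27025 promoters. The motif CCGGAAG, a core bound by ETS factors, was in 20 of the 57 (35.1%, against 9.93% of all promoters) and the GC box in 39 (68.4%, against 38.2%). CCAAT was in 29 (50.9%, against 41.1%), TATAAA in 7 (12.3%, against 15.7%), AAGATGGC, bound by YY1, in 3 (5.26%, against 3.19%) and GCATGCGC, bound by NRF1, in 3 (5.26%, against 3.05%). Both strands were read for every motif, and the splicing promoters were richer in GC, with a median of 60.3% against 52.8%. A match is a description of the letters and not a bound site.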

How the data were processed

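Total RNA-seq libraries were made by the authors with a stranded SMART-Seq kit, trimmed with Trimmomatic 0.39, mapped to GRCm38 with STAR 2.7.8a and quantified with RSEM 1.3.1. Whether RSEM counted by strand is not given in the sources used here. The deposited tables hold, per gene and library, the authors' expected counts, which are not normalized, their FPKM, the estimated mean transcript length in bases and the posterior standard deviation of the count, which was at most 2.29% of the count for the 65 genes. ATAC-seq peaks were deposited by the authors as 1 list per stage and treatment from the ENCODE pipeline over both replicates, with fold enrichment as a ratio and −log10 p-values and q-values, and the build of the lists is not given in the sources used here.

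Genes were matched by identifier to GENCODE M21. Expected counts were rounded, and edgeR 4.0.16 (quasi-likelihood test, TMM scaling, in R 4.3.3) was run on the 4 libraries of a comparison or, for a difference of effects, on 8. Genes below 10 counts in sum were left out, and p-values were adjusted by Benjamini-Hochberg over every gene fitted. Standard errors were taken as the log2 fold change divided by the root of F. The shares quoted for all genes count the genes with a mean of at least 1 FPKM in either group, and for a difference of effects all genes tested. Alternatives were DESeq2 1.42.0, total-count and mitochondrial scaling, no count filter, no FPKM cutoff, all 16 libraries in one fit, a replicate block and leaving out each library. The fits were tested on simulated data. Python 3.11.15 with scipy 1.17.1 was used for peaks and motifs.

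Between libraries of a group, counts varied beyond sampling noise (chi-square per degree of freedom 8.99 to 18.0), so that precision is limited by having 2 libraries a group rather than by depth. The 65 genes and the other gene lists were chosen with earlier results of these data known. Named were, in each comparison, up to 8 called genes of each direction by size of change, the 10 highest and 5 lowest by mean FPKM, and examples of the lists; 1 gene that the rule names is not reported here. No set test was made. The 8 CUT&RUN samples were not used here.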

Additional observations from a re-analysis of the deposited data

Results flagged for a closer look

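The effect of A-485 on 8 genes differed between early and late 2-cell embryos, each by the interaction test of edgeR, and these are the 8 largest such differences. On the log2 scale, late minus early, they were −2.96 for *Sf3b6*, −2.66 for *Snrpa*, −2.40 for *Prpf38a*, −2.31 for *Hnrnpm*, −2.31 for *Snrpe*, −2.27 for *Snrpd1*, −2.16 for *Sf3b2* and −2.12 for *Snrpd3*. All 8 were lower at late 2-cell in both A-485 libraries than in both DMSO libraries of their experiment.

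The effects of TSA and A-485 at late 2-cell also differed by the same kind of test, for 11 genes that were less reduced after TSA and for *Srsf12*, which went the other way (−7.83, from few counts). The 8 largest differences of the 11, TSA minus A-485, were 2.79 for *Snrpc*, 2.22 for *Sf3b6*, 1.64 for *Srsf2*, 1.55 for *Prpf38a*, 1.53 for *Snrpa*, 1.37 for *Snrpa1*, 1.28 for *Snrpd3* and 1.15 for *Snrpb*. The calls of *Snrpd3*, *Snrpb* and *Srsf12* were each lost in 7 of the 8 fits that left out 1 library. For *Snrpd3* the DMSO libraries themselves differed between the experiments (11.1 and 16.2 FPKM against 39.8 and 32.4 FPKM), and what this adds to the difference was not tested.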

How the results depend on the processing

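The counts of down-regulated genes at early 2-cell (7 after A-485) and late 2-cell (42 after A-485, 40 after TSA) stayed within 1.5 times of these values under each alternative run, and 279 of the counts, medians and shares recomputed kept their value so defined while 67 moved. Of the values for single genes, 740 kept direction and call, 35 lost the call and 5 turned. The 5 turned with mitochondrial scaling in the step from zygote to early 2-cell: *Srsf1* (−0.005078), *Srsf7* (−0.062), *Snrpe* (−0.17), *Snrpf* (−0.19) and *Snrpc* (−0.20). The cause was not tested.

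With mitochondrial scaling the median was 0.28 for A-485 in zygotes, −2.525 for A-485 and −1.34 for TSA at late 2-cell, −1.18 from zygote to early 2-cell (40 genes down, 0 up), −1.88 for the late minus early effect of A-485 (54 down) and 0.91 for TSA minus A-485 (28 up). Shares of all genes called were not taken under this scaling, so these counts have none beside them. With total counts it was −1.36 for A-485 and −0.79 for TSA at late 2-cell, 0.087 from zygote to early 2-cell and −0.69 for late minus early. With DESeq2 it was 0.25 from zygote to early 2-cell, −0.91 for late minus early and 0.061 for TSA minus A-485, where 2 genes were called lower, as without a count filter. In the fit of all 16 libraries it was −0.095 for A-485 at early 2-cell, −1.02 for TSA and −0.93 for late minus early, with 0 genes lower for TSA minus A-485. With late controls of the TSA experiment, 2 genes fell from early to late 2-cell.

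Without 1 library at a time, medians ranged from −0.030 to 0.043 (A-485, zygote), −0.28 to −0.14 (A-485, early 2-cell), −1.23 to −1.13 (TSA), 0.062 to 0.127 (zygote to early 2-cell), −1.26 to −0.78 (late minus early) and 0.14 to 0.31 (TSA minus A-485). Calls up ranged from 0 to 1 for A-485 at late 2-cell, 0 without A-485 replicate 1, from 0 to 1 for late minus early, 1 without early 2-cell DMSO replicate 2, and from 7 to 13 for TSA minus A-485, 7 without DMSO replicate 1 of the A-485 experiment or without DMSO replicate 2 or TSA replicate 1 of the TSA experiment. Calls down there ranged from 0 to 1, 0 without any of these 3 libraries or DMSO replicate 1 of the TSA experiment. Replicate numbers are shared in name only, with correlations of replicate differences between groups of −0.03 to 0.07. With the replicate block, 8 genes were down-regulated at early 2-cell, 42 and 40 at late 2-cell after A-485 and TSA, and 0 genes were lower for TSA minus A-485.

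As a percent of protein-coding FPKM, the mean sum of the 65 genes was 1.13 and 1.15 (zygote, DMSO and A-485), 1.09 and 0.926 (early 2-cell), 1.71 and 0.838 (late 2-cell) and 1.83 and 1.02 (late 2-cell, DMSO and TSA). Without the 3 highest genes, the percent of all FPKM was 0.447, 0.455, 0.257, 0.214, 0.374, 0.106, 0.326 and 0.144 in the same order. With equal numbers of peaks, 61.5% of the genes had a peak in early 2-cell DMSO embryos.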
